A study of Mus musculus with 8 samples.

Results

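The Myc, Max and Mxd network comprised 9 listed genes, namely Myc, Mycn, Max, Mxd1, Mxd3, Mxd4, Mxi1, Mnt and Mlx, which were found by their gene names among the 29924 gene names of the arrays. They were represented by 11 of 39429 probes, and a gene with several probes was represented by its brightest probe. Of the 9 genes, 7 exceeded the background on each array of 1 or more cell types and were among the 15764 genes tested. The arrays measured mRNA of 4 types of CD4 T cells that were sorted from pLN of Foxp3-EGFP mice (strain label B6.Cg-Foxp3<tm1Mal>, in which Foxp3+ cells carry GFP), 12 days (d12) or 25 days (d25) after KLH in alum had been given s.c.. Naïve CD4 T cells (naïve cells) were GFP- PD1- GL7-, TFH were GFP- PD1hi GL7+, Treg were GFP+ PD1- GL7-, and TFR were GFP+ PD1hi and either GL7+ or GL7-. All 4 cell types thus came from immunized mice, and each of the 8 arrays held a pool of 8 to 15 mice of both sexes aged 8 to 14 weeks, from which 25 ng of RNA was used. There was 1 array for each cell type at each day, so that the 2 arrays of a cell type also differ in day. The p-values measure the spread of the 8 arrays that was left after cell type and a day shift shared by all cell types. Differences are given with their sign on the log2 scale, ± SE.

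Myc is a transcription factor that binds DNA as a dimer with Max, preferentially at the E-box sequence CACGTG, and activates genes for ribosome assembly, nucleotide synthesis and other functions of cell growth. The Mxd proteins and Mnt also require Max for DNA binding, but recruit Sin3 histone deacetylase complexes and repress genes at the same sites. Mlx is a Max-like partner that dimerizes with some Mxd proteins, with Mnt and with the glucose-responsive factors MondoA and ChREBP. In T cells, Myc is known to be induced upon antigen receptor stimulation, whereas several Mxd genes are known to be expressed in differentiating cells.

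Between 46.31% and 50.39% of the probes were well above background on an array, and no spot was saturated. Foxp3 and Pdcd1, which define the sort gates, followed the labels. Foxp3 was between 37266 and 49262 RU in Treg and TFR and at most 358 RU in the other cells, and Pdcd1 was at least 87316 RU in TFH and TFR and at most 4621 RU in the others, where RU represents the normalized signal of a probe on a linear scale. The d12 arrays shared slide 1, naïve cells and TFH of d25 shared slide 2, and Treg and TFR of d25 shared slide 3. Hence, TFH were compared with naïve cells and TFR with Treg within slides at both days, while slide and day cannot be told apart. The summed level of 10 B cell genes was 18915 RU in TFH at d25 and between 6377 and 10486 RU on the other 7 arrays. Pax5, a transcription factor that defines B cells, did not exceed the background on any array. Jchain and Mzb1, from the list of genes of antibody-secreting cells, were highest in naïve cells at d12 (7466 and 7639 RU). In naïve cells at d25, they were 1157 and 1352 RU. The other genes of that list were not highest in naïve cells at d12.

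Promoters of network genes that contain the E-box are shown, since it is the sequence bound by the dimers. A window from 250 bases before to 50 bases after the transcription start was taken from a table of RefSeq promoters (GRCm38.p6) for 8 of the 9 genes, and the promoter of Myc was not analysed here. CACGTG, which reads the same on both strands, was found in the windows of 4 genes (Max, Mxd4, Mnt and Mlx). Among all 32851 windows, 7.15% held it. In Max, the motif spanned the transcription start, beginning 3 bases before it. The windows of Mycn, Mxd1, Mxd3 and Mxi1 did not contain these letters. The 250 bases before the start are given for the 3 genes with an E-box upstream, in lower case with the E-box in capitals, from chr5:34187711-34187960 on the minus strand for Mxd4, from chr11:74830674-74830923 on the plus strand for Mnt and from chr11:101087040-101087289 on the plus strand for Mlx:
Mxd4: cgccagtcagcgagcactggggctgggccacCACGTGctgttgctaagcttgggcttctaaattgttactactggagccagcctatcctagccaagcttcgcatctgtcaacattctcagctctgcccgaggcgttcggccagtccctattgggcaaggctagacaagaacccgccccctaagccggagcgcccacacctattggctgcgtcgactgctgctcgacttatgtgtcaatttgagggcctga
Mnt: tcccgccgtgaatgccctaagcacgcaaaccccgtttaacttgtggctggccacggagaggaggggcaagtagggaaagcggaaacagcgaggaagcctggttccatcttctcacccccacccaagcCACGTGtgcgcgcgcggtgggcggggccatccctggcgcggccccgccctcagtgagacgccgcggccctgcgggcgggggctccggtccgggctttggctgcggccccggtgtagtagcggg
Mlx: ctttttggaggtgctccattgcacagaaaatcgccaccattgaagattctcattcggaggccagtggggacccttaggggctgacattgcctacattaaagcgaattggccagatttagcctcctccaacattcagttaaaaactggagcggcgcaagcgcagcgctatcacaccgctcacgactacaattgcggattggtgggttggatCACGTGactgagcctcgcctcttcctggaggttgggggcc
The motif began 219 bases before the start in Mxd4, 123 bases before it in Mnt and 40 bases before it in Mlx. These matches are a description of the sequence and not of binding.

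Compared with their non-follicular counterparts, both follicular cell types contained less Myc mRNA and more Mxd3 and Mxd4 mRNA. Mxd1, Mnt and Mlx were also lower, while Max was called higher in TFH and not in TFR, and the difference between both changes was not called (-0.42 ± 0.21, adjusted p = 0.298). In TFH versus naïve cells, all 7 tested genes were called at an adjusted p below 0.05, 3 higher and 4 lower, where 46.5% of all tested genes were called; without either naïve array or the d25 TFH array, 4 of the 7 were called. In TFR versus Treg, 6 of 7 were called, 2 higher and 4 lower, where 39.6% of all tested genes were called. Among the 15764 tested genes, 759 differed between TFH and naïve cells by at least as much as Myc, 744 by at least as much as Mxd3 and 1746 by at least as much as Mxd4.

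**Figure D1:**
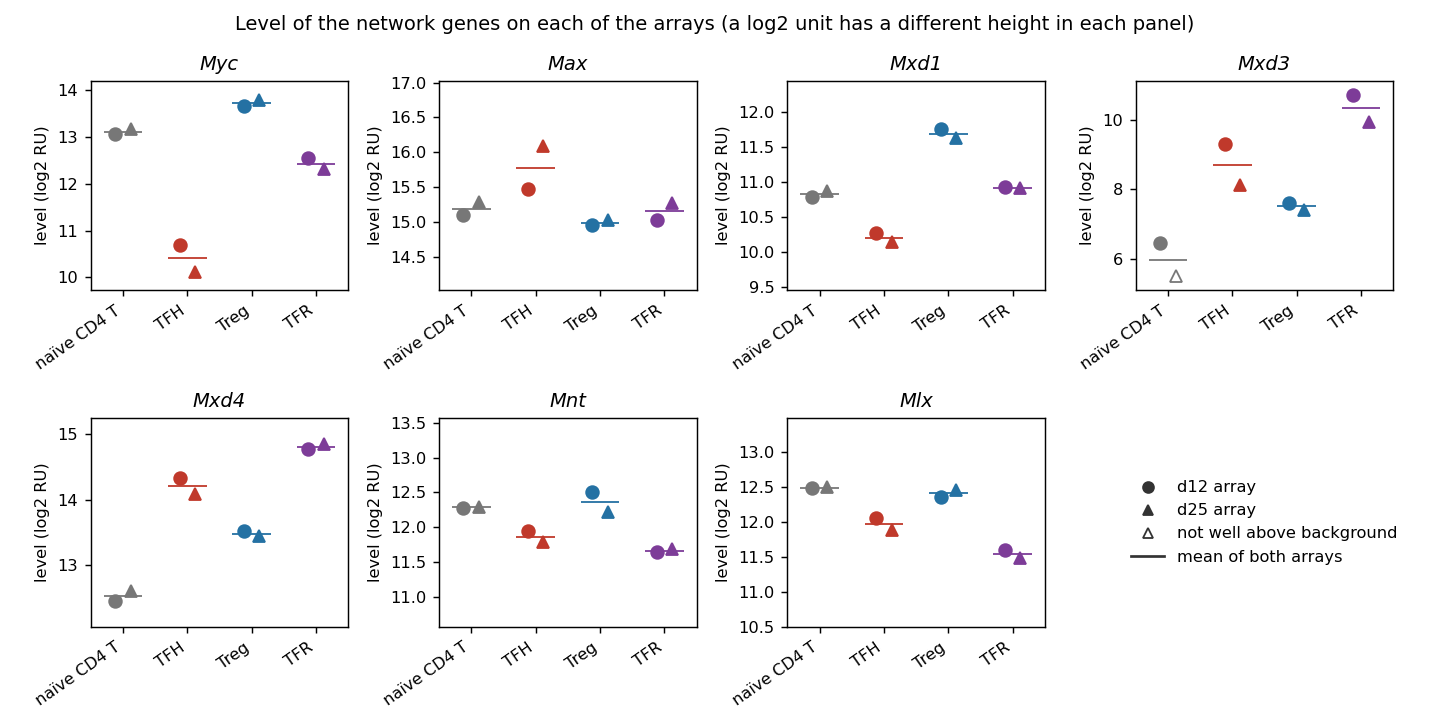
Level of the 7 tested network genes in log2 RU (vertical axes, scaled separately) on each of the 8 arrays by cell type (horizontal axes), with circles for d12, triangles for d25, an open symbol where the probe was not well above background and a line at the mean of both arrays. Myc was lowest in TFH (1663 RU at d12 and 1118 RU at d25), and Mxd3 and Mxd4 were highest in TFR.

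Myc was measured by a probe at chr15:61821417-61821476 on the plus strand (NCBI37). Its level was 8506 RU at d12 and 9142 RU at d25 in naïve cells, and 1663 and 1118 RU in TFH. In Treg it was 12894 and 14168 RU, and in TFR 5987 and 5071 RU. The ranges of the 4 cell types did not overlap. Treg were highest, followed by naïve cells, TFR and TFH, and the neighbours Treg and naïve cells were not separated by the test (log2 difference 0.62 ± 0.20, SE, adjusted p = 0.132). Myc was 6.47-fold lower in TFH than in naïve cells (log2 difference -2.69 ± 0.20, SE, 2 arrays each, adjusted p = 0.000791), by -2.35 at d12 and -3.03 at d25. It was 2.45-fold lower in TFR than in Treg (-1.29 ± 0.20, adjusted p = 0.00883), by -1.11 and -1.48. The latter call was lost when the d12 or d25 TFR array or the d25 Treg array was left out, with adjusted p between 0.0594 and 0.0701 and differences between -1.36 and -1.11. The lowest level of Myc was on the TFH array of d25, which was also the array with the highest sum of B cell genes; without that array, Myc was still lower in TFH than in naïve cells by -2.41 (adjusted p = 0.00364). In sorted pools, fewer cells that express a gene and less mRNA per cell cannot be told apart.

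TFR contained more Myc mRNA than TFH. The difference of 2.01 ± 0.20 on the log2 scale (4.04-fold, adjusted p = 0.0044) was 1.85 at d12 and 2.18 at d25, and its adjusted p rose to 0.0529 without the d12 TFR array. TFR were also below naïve cells (-0.68 ± 0.20, adjusted p = 0.0401). The change from Treg to TFR was smaller in size than the change from naïve cells to TFH by 1.40 ± 0.28 (95% interval 0.67 to 2.13), but this difference of changes missed the threshold with an adjusted p of 0.0523. It passed under 5 of 19 alternative settings.

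Mycn, a Myc paralog that is best known from the developing nervous system, was at the floor of 20 RU on all 8 arrays. Since its probe nowhere exceeded the background, Mycn was not tested and its levels have no order.

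Max is the common dimerization partner. Its level was 35047 and 39902 RU in naïve cells at d12 and d25, 45404 and 69721 RU in TFH, 31717 and 33437 RU in Treg, and 33561 and 39699 RU in TFR. TFH were thus highest at both days, with the d25 array standing out, naïve cells and TFR overlapped, and Treg lay just below them. Max was 1.5-fold higher in TFH than in naïve cells (0.59 ± 0.15, adjusted p = 0.0302). Without the d25 TFH array, the difference was 0.36 with an adjusted p of 0.064, and the call was also lost without either naïve or either TFR array (adjusted p between 0.0682 and 0.145). In TFR versus Treg, the difference was 0.16 with a 95% interval from -0.23 to 0.56 (adjusted p = 0.427), and in TFR versus naïve cells it was -0.03 (adjusted p = 0.863).

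Of the Mxd genes, Mxd3 showed the highest fold changes between follicular and non-follicular cells, except with normexp background correction, where Mxd4 differed more in TFH versus naïve cells (1.69 versus 1.39 for Mxd3). This gene is known from proliferating progenitor cells, in contrast to its relatives. Its level was 87.3 and 44.8 RU in naïve cells at d12 and d25, the latter not well above background, and 628 and 278 RU in TFH. It was 194 and 169 RU in Treg, and 1679 and 980 RU in TFR. Both follicular cell types were above both non-follicular ones on all arrays. Mxd3 was 6.68-fold higher in TFH than in naïve cells (2.74 ± 0.25, adjusted p = 0.00133; 2.85 at d12 and 2.63 at d25, with 1 of 2 naïve arrays well above background) and 7.07-fold higher in TFR than in Treg (2.82 ± 0.25, adjusted p = 0.00216; 3.11 and 2.53). With normexp, which raises dim signals, these differences shrank to 1.39 and 2.08 and remained called. The neighbours in the order of levels, TFR, TFH, Treg and naïve cells, differed by 1.62 (adjusted p = 0.0135), 1.20 (Treg lower, log2 difference -1.20, adjusted p = 0.0178) and 1.54 (adjusted p = 0.0256). The call between Treg and naïve cells was lost under 9 of 18 alternatives, including normexp, with which the difference was 0.60 (adjusted p = 0.098). Without either TFR array or the d25 TFH array, the adjusted p of TFR versus TFH was between 0.0633 and 0.105.

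Mxd4 encodes a Max-binding repressor known from resting and differentiating cells. Its brighter probe gave 5637 and 6224 RU in naïve cells, 20565 and 17390 RU in TFH, 11773 and 11148 RU in Treg, and 27913 and 29524 RU in TFR. The 4 cell types did not overlap, and TFR were highest. Mxd4 was 3.19-fold higher in TFH than in naïve cells (1.67 ± 0.12, adjusted p = 0.000772; 1.87 at d12 and 1.48 at d25) and 2.51-fold higher in TFR than in Treg (1.33 ± 0.12, adjusted p = 0.0025; 1.25 and 1.41). All neighbours in the order TFR, TFH, Treg, naïve cells differed by the test, TFR from TFH by 0.60 (adjusted p = 0.0299) and Treg from naïve cells by 0.95 (adjusted p = 0.0146), although each of these calls was lost under 7 or 8 of 19 alternatives. A second probe, which overlaps the first on chromosome 5, gave smaller differences of 0.84 in TFH (adjusted p = 0.0283) and 0.80 in TFR (adjusted p = 0.0387). By the second probe, neither Treg and TFH (0.11, adjusted p = 0.706) nor Treg and naïve cells (0.96, adjusted p = 0.0597) were separated.

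Mxd1, which is induced in many cells as they leave the cell cycle, did not follow its relatives. It was 1764 and 1877 RU in naïve cells, 1232 and 1128 RU in TFH, 3471 and 3162 RU in Treg, and 1952 and 1924 RU in TFR. Treg were highest and TFH lowest, with no overlap between any cell types, whereas TFR and naïve cells differed by 0.09 (adjusted p = 0.467). Mxd1 was lower in TFH than in naïve cells by -0.63 ± 0.10 (adjusted p = 0.00673) and lower in TFR than in Treg by -0.77 ± 0.10 (adjusted p = 0.0051). Its second probe gave -0.64 and -1.03, with adjusted p of 0.00531 and 0.00226, and 0.28 in TFR versus naïve cells (adjusted p = 0.0545).

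Mxi1, the remaining Mxd gene of the list, was at the floor of 20 RU on 7 arrays and 36.4 RU in Treg at d12. Its probe did not exceed the background anywhere. The probe is annotated to 1 transcript variant, and whether it also detects other variants was not assessed. Mnt, a Max-binding repressor that is found in most cells, was 4972 and 5025 RU in naïve cells, 3933 and 3546 RU in TFH, 5800 and 4768 RU in Treg, and 3190 and 3298 RU in TFR. The follicular cell types were below the others on all arrays. Mnt was lower in TFR than in Treg by -0.70 ± 0.11 (adjusted p = 0.0105), and in TFH than in naïve cells by -0.42 ± 0.11 (adjusted p = 0.036). The TFH call was lost under 9 of 19 alternatives, including the omission of any naïve, TFH or TFR array (adjusted p of 0.176 or less), and the TFR call was lost without the d12 array of Treg (adjusted p = 0.0656) or TFR (adjusted p = 0.0765). Neither TFR and TFH (-0.20, adjusted p = 0.266) nor Treg and naïve cells (0.07, adjusted p = 0.738) were separated.

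Mlx was 5711 and 5793 RU in naïve cells, 4241 and 3780 RU in TFH, 5240 and 5637 RU in Treg, and 3110 and 2869 RU in TFR. TFR were lowest, TFH next, and both were below the non-follicular cell types on all arrays. Mlx was 1.82-fold lower in TFR than in Treg (-0.86 ± 0.10, adjusted p = 0.00455) and 1.44-fold lower in TFH than in naïve cells (-0.52 ± 0.10, adjusted p = 0.014). The latter call was lost without either naïve array or the d25 TFH array (adjusted p up to 0.0845). Treg and naïve cells differed by -0.08 (adjusted p = 0.67), and TFR and TFH by -0.42, a call that was lost under 13 of 19 alternatives.

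**Figure D2:**
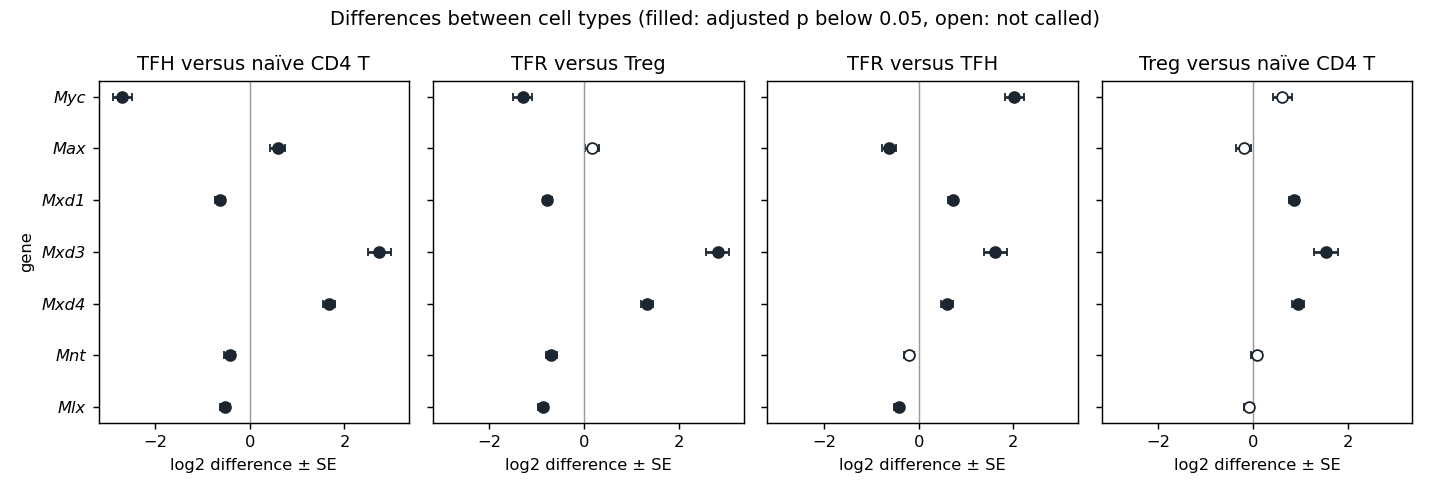
Log2 differences (horizontal axes) of the 7 tested genes (vertical axis) in 4 comparisons, where points are limma estimates from 2 arrays per cell type, bars are 1 SE, and open points had an adjusted p of 0.05 or above. Myc lay at -2.69 and -1.29 in the comparisons of follicular with non-follicular cells, while Mxd3 lay at 2.74 and 2.82 and Mxd4 at 1.67 and 1.33.

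Foxp3+ and Foxp3- cells were compared next. In Treg versus naïve cells, 3 of 7 genes were called and all were higher (Mxd1, Mxd3 and Mxd4), where 9.88% of all tested genes were called and 5.89% were higher. All 3 calls were lost with slide in place of day in the model (adjusted p between 0.064 and 0.0936), and no more than 1 of them was kept upon omission of any naïve, Treg or TFR array. At d25 these cell types lay on different slides. In TFR versus TFH, 6 of 7 genes were called, where 22.1% of all tested genes were called, and Mnt was not. With slide in place of day, Myc (adjusted p = 0.0358) and Mxd3 remained called, and without the d12 TFR array none of the 6 was called (Myc, adjusted p = 0.0529). Without the d25 TFR array 1 was called, without the d25 TFH array 2, and without either Treg array 3. The change from Treg to TFR minus the change from naïve cells to TFH passed the threshold for none of the 7 genes, where 8.49% of all tested genes passed, and Myc was the only network gene with an unadjusted p below 0.05 by limma.

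None of the 7 genes was called between d25 and d12 by limma, where 0.0698% of all tested genes (11 genes) were called and 4545 genes had an unadjusted p below 0.05. Mxd3 had the lowest p with a difference of -0.78 ± 0.17 (unadjusted p = 0.00683, adjusted p = 0.0866) and was lower at d25 in all 4 cell types. Max was higher at d25 in all 4 cell types, by 0.28 ± 0.11 (unadjusted p = 0.0479, adjusted p = 0.17).

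The shift of Myc relative to its antagonists was obtained within each array as the log2 level of Myc minus that of the other gene, set to 0 at the mean of naïve cells. Relative to Mxd4, Myc was shifted by -4.20 and -4.53 in TFH at d12 and d25, by -2.80 and -3.12 in TFR, and by -0.44 and -0.23 in Treg. Relative to Mxd3, it was shifted by -5.74 and -5.13 in TFH and by -5.31 and -4.77 in TFR, with the dim d25 level of Mxd3 included in the mean of naïve cells. Thus TFH and TFR, which lie far apart for Myc alone, lay close for Myc relative to Mxd3. These values describe the arrays and were not tested.

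**Figure D3:**
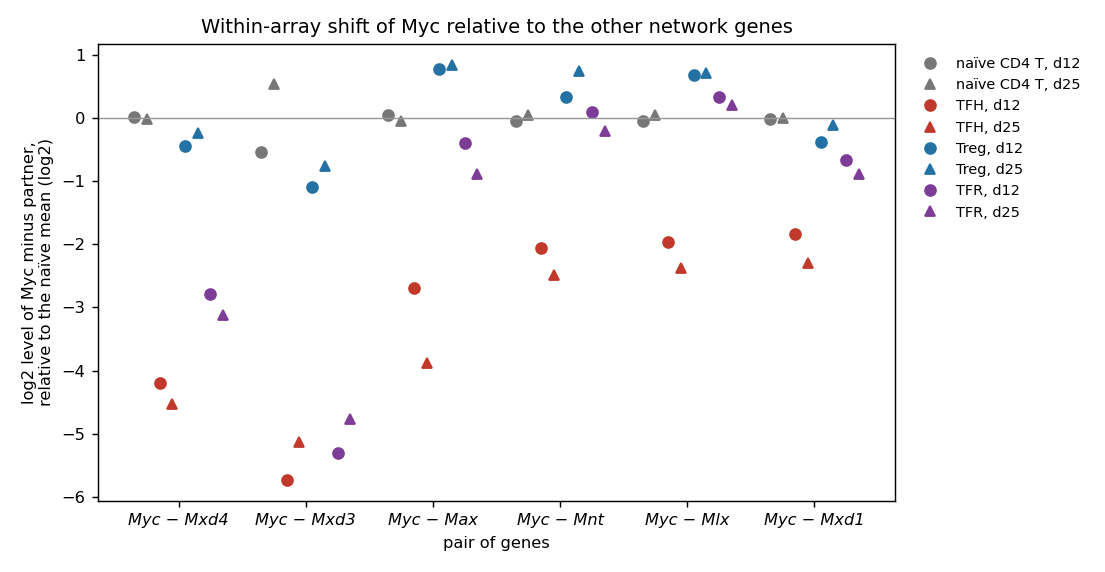
Log2 level of Myc minus that of another network gene on each array, relative to the mean of naïve cells (vertical axis, log2), for 6 pairs of genes (horizontal axis), with 1 symbol per array. Relative to Mxd4, the 2 TFH arrays lay at -4.20 and -4.53 and the 2 TFR arrays at -2.80 and -3.12, all below the Treg arrays.

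Genes for ribosome assembly and nucleotide synthesis, which Myc is known to activate, were lower in TFH. Proliferation genes, which were listed apart from the Myc-activated genes, were higher. Of 32 tested ribosome biogenesis genes, 27 were lower and none higher in TFH versus naïve cells, where 25.6% of all tested genes were lower and 20.9% higher. The median difference was -0.66, compared with -0.07 over all tested genes. Rrp12, which is required for the export of ribosomal subunits, was lower by -2.12 ± 0.23 (adjusted p = 0.00228, with 1 of 2 TFH arrays well above background), Polr1b, a core subunit of RNA polymerase I, by -1.31 ± 0.15 (adjusted p = 0.0029), the rRNA transcription factor Tcof1 by -1.21 ± 0.18 (adjusted p = 0.00636), and Dkc1, which modifies rRNA, by -1.07 ± 0.20 (adjusted p = 0.0121). In TFR versus Treg, 13 of the 32 genes were lower and none higher, with a median of -0.33, where 20.9% of all tested genes were lower and 18.7% higher. Rrp12 (-1.70, adjusted p = 0.00614, with 1 of 2 TFR arrays well above background), Polr1b (-0.91 at d12 and -1.09 at d25, adjusted p = 0.00867), Rrp9 (-0.84, adjusted p = 0.00285) and Nle1 (-0.81, adjusted p = 0.0103) were lower, whereas Dkc1 differed by -0.28 (adjusted p = 0.311). Upon omission of either array of Treg or TFR, most of the 13 calls in TFR were lost. The share called lower then lay near that of all tested genes, so these fits show no excess of ribosome biogenesis genes. Without the d25 naïve array, fewer of the 32 genes were called lower in TFH than with all arrays.

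Of 21 tested genes for nucleotide and one-carbon metabolism, 15 were lower and none higher in TFH, with a median of -0.56. Among all tested genes, 25.6% were lower in TFH and 20.9% in TFR. Cad, which starts pyrimidine synthesis, was lower by -1.57 ± 0.31 (adjusted p = 0.0143, with 1 of 2 TFH arrays well above background), the purine synthesis enzyme Gart by -1.35 ± 0.10 (adjusted p = 0.000746), Impdh1, which directs purines to guanine nucleotides, by -1.15 ± 0.23 (adjusted p = 0.0147), and Prps1, which provides the activated ribose, by -1.01 ± 0.10 (adjusted p = 0.00163). Without the d12 or d25 naïve array, 7 and 4 of them were called lower in TFH. In TFR versus Treg, 6 were lower and 1 higher (1 to 3 lower upon omission of any naïve, Treg or TFR array), with a median of -0.04 that lay near the -0.08 of all tested genes. Gart (-0.81, adjusted p = 0.00468), Impdh1 (-1.01, adjusted p = 0.0258) and Prps1 (-0.74, adjusted p = 0.00582) were lower in TFR too. The E-box CACGTG was present in the promoter window of 7 of 26 ribosome biogenesis genes and of 5 of 19 nucleotide genes with a window, compared with 8.09% of all genes with a window.

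Proliferation genes moved in the opposite direction. Of 19 tested, 16 were higher in TFH and all 19 were higher in TFR, with medians of 2.54 and 2.71, where 20.9% and 18.7% of all tested genes were higher. The thymidine kinase gene Tk1 was higher by 3.59 ± 0.16 in TFH (adjusted p = 0.000242) and by 3.09 ± 0.16 in TFR (adjusted p = 0.00071), and the mitotic cyclin gene Ccnb2 by 3.19 (adjusted p = 0.000192) and 2.89 (adjusted p = 0.000515). The summed level of the list was between 45890 and 46447 RU in naïve cells, 78108 and 100387 RU in TFH, 58169 and 62127 RU in Treg, and 164072 and 207832 RU in TFR, the same order of cell types as for Mxd3 and Mxd4. Its part in the differences of Mxd3 and Mxd4 was not tested. None of the 17 proliferation genes with a promoter window had the E-box, compared with 8.09% of all genes with a window. The E-box was present in 3 of 10 cell cycle genes described as Myc-activated, 4 of 10 translation initiation genes and 3 of 20 glycolysis and nutrient transport genes. A relation between the E-box and the direction of change was not tested.

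**Figure D4:**
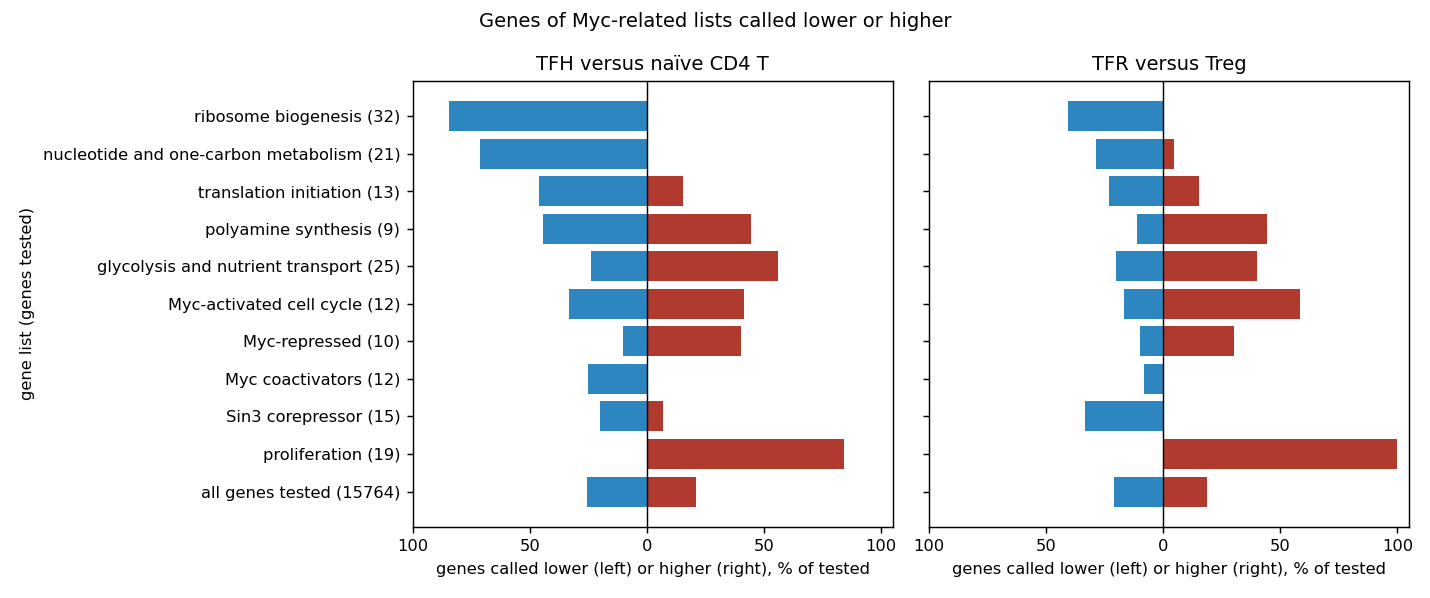
Share of the tested genes of each list that were called lower (blue, to the left) or higher (red, to the right) in TFH versus naïve cells and in TFR versus Treg (horizontal axes, %), with the number of tested genes in brackets and all 15764 tested genes in the lowest bar. Ribosome biogenesis genes were lower (27 of 32 in TFH, 13 of 32 in TFR) and proliferation genes higher (16 and 19 of 19). Most of the 13 calls in TFR were lost upon omission of a Treg or TFR array.

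Genes of the cell cycle that are described as Myc-activated were divided. Of 12 tested, 5 were higher and 4 lower in TFH, and 7 were higher and 2 lower in TFR, where 46.5% and 39.6% of all tested genes were called. The Cdk-binding proteins Cks2 (3.02 and 3.01, adjusted p = 0.00203 and 0.00326) and Cks1b (1.28 and 2.09, adjusted p = 0.00144 and 0.00081), cyclin E1 (Ccne1, 1.51 and 1.41, adjusted p = 0.00551 and 0.00887) and E2f1 (1.18 and 2.34, adjusted p = 0.0241 and 0.00455) were higher in TFH and TFR, respectively. Tfap4, a transcription factor induced by Myc in activated lymphocytes, was lower (-1.26 and -0.83, adjusted p = 0.00286 and 0.0125).

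Metabolic genes ascribed to Myc were divided as well. Of 9 tested polyamine genes, 4 were higher and 4 lower in TFH, and 4 were higher and 1 lower in TFR, where 46.5% and 39.6% of all tested genes were called. The ornithine decarboxylase gene Odc1, a textbook Myc target, was 6706 and 7201 RU in naïve cells, 44795 and 53020 RU in TFH, 8506 and 9227 RU in Treg, and 44766 and 41917 RU in TFR, hence higher by 2.81 ± 0.11 in TFH (adjusted p = 0.000188) and 2.29 ± 0.11 in TFR (adjusted p = 0.000578). The spermidine synthase gene Srm was lower by -1.44 ± 0.18 (adjusted p = 0.00324) and -0.66 ± 0.18 (adjusted p = 0.0383). Of 25 genes of glycolysis and nutrient transport, 14 were higher and 6 lower in TFH, and 10 higher and 5 lower in TFR. Among all tested genes, 20.9% were higher and 25.6% lower in TFH, and 18.7% higher and 20.9% lower in TFR. The lactate exporter gene Slc16a3 was higher by 3.14 and 2.64 (adjusted p = 0.000177 and 0.000508), the glycolytic enzyme genes Tpi1 by 2.12 and 1.68 (adjusted p = 0.000239 and 0.00081) and Hk2 by 2.08 and 1.11 (adjusted p = 0.00362 and 0.0282). Hk2 was well above background on 1 of 2 naïve arrays. Of 13 genes listed for translation initiation, 2 were higher and 6 lower in TFH, and 2 were higher and 3 lower in TFR. In TFR, the share called lay near the 39.6% of all tested genes. The list included Eef1e1, which does not encode an initiation factor and was lower (-1.07 and -0.61, adjusted p = 0.00127 and 0.00886). It also included the translation repressor gene Eif4ebp1, which was higher (0.61 and 0.82, adjusted p = 0.025 and 0.0128).

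Of 10 genes described as Myc-repressed, 4 were higher and 1 lower in TFH, and 3 were higher and 1 lower in TFR. These shares lay near those of all tested genes, of which 46.5% were called in TFH and 39.6% in TFR. The Cdk inhibitor gene Cdkn1a was 1083 and 1003 RU in TFH and 384 and 289 RU in TFR at d12 and d25, while it was not well above background in naïve cells or Treg, where its measured levels were between 20 and 62.1 RU. Taking for each dim array its own level or, if higher, the lowest signal there that exceeded the background, Cdkn1a was at least 17.9-fold higher in TFH than in naïve cells and at least 5.98-fold higher in TFR than in Treg (adjusted p = 0.000131 and 0.00106). By the same rule, Cdkn2b was at least 2.32-fold and 6.19-fold higher (adjusted p = 0.0164 and 0.00711). Cdkn2c, another Cdk inhibitor gene, was higher by 2.21 ± 0.11 in TFH (adjusted p = 0.000282) and 2.01 ± 0.11 in TFR (adjusted p = 0.000738). Ndrg1 was lower, by -3.41 ± 0.11 in TFH (adjusted p = 0.000159) and by -0.58 ± 0.11 in TFR (adjusted p = 0.017).

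Of 15 genes of the Sin3 complex, through which Mxd proteins repress, 1 was higher and 3 were lower in TFH, and 5 were lower in TFR. Sin3a, its scaffold, was lower by -0.51 ± 0.08 in TFH (adjusted p = 0.00696) and -0.46 ± 0.08 in TFR (adjusted p = 0.012). Sap18 was lower by -0.87 (adjusted p = 0.0138) and -1.11 (adjusted p = 0.00867). Of 12 Myc coactivator genes, 3 were lower in TFH and 1 in TFR, among them the acetyltransferase gene Kat2a in both (-0.91 and -0.78, adjusted p = 0.00296 and 0.0064), and Wdr5 was lower in TFH by -0.43 (adjusted p = 0.0263). Of 14 genes for turnover of the Myc protein, 1 was higher and 4 were lower in either comparison. In each of these 3 lists, the share called lay below that of all tested genes, which was 46.5% in TFH and 39.6% in TFR. The deubiquitinase genes Usp28 (-1.76 and -0.66, adjusted p = 0.000684 and 0.015) and Usp36 (-1.22 and -1.11, adjusted p = 0.00193 and 0.00387), both known to stabilize Myc, were lower. Ppp2r5a, a regulatory subunit of the phosphatase PP2A, which is known to promote the degradation of Myc, was lower as well (-0.90 and -0.71, adjusted p = 0.0109 and 0.0262), and the mitotic kinase gene Aurka was higher (0.91 and 2.10, adjusted p = 0.0479 and 0.00573). Protein levels were not measured.

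The wider network comprised 4 tested genes (Mycl, Mga, Mlxip and Mlxipl). The Mlx partner ChREBP (Mlxipl) was lower by -0.37 ± 0.11 in TFH (adjusted p = 0.0454) and -0.50 ± 0.11 in TFR (adjusted p = 0.0231), and MondoA (Mlxip) was lower in TFR by -0.48 ± 0.11 (adjusted p = 0.024). Mga, which binds Max and represses, was 345 and 445 RU in naïve cells, 261 and 420 RU in TFH, 385 and 683 RU in Treg, and 164 and 228 RU in TFR. It was lower in TFR than in Treg by -1.41 ± 0.14 (adjusted p = 0.00285), and in TFH it differed by -0.24 (adjusted p = 0.209). Mycl was 1546 RU in TFH at d12 and 65.9 RU in TFH at d25, a spread that left it uncalled. Of 5 targets of MondoA and Mlx, 2 were higher and 2 lower in either comparison, where 46.5% (TFH) and 39.6% (TFR) of all tested genes were called. Txnip, the most established of them, was lower by -1.76 ± 0.12 in TFH (adjusted p = 0.000693) and -1.59 ± 0.12 in TFR (adjusted p = 0.00167), whereas Arrdc4 was higher by 2.26 ± 0.17 (adjusted p = 0.000828) and 0.90 ± 0.17 (adjusted p = 0.0157).

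The genes with the most similar pattern were searched by Pearson's r over the 8 arrays for each of the 6 network genes that were well above background on all of them. The arrays share cell types, and r is a description. Closest to Mxd4 were the mitotic kinesin gene Kif11 (r = 0.9965) and Athl1 (0.995). Closest to Mxd1 were the glucose transporter gene Slc2a3 (0.9896), Rexo2 (0.9816) and St3gal4 (0.9792), and closest to Mlx were Pgs1 (0.9926), Acss1 (0.9911) and Mafk (0.9902). Max was most similar to Gm2479 (0.991), Snrnp27 (0.9768) and the T cell kinase gene Lck (0.9768). Mnt was most similar to Slc50a1 (0.9816), to an unnamed probe (0.9811) and to H2-T24 (0.981). Myc was most similar to 2 features without a gene symbol (0.994 and 0.9927) and to the thrombin receptor family gene F2rl3 (0.992), which was 548 and 598 RU in naïve cells, 132 and 113 RU in TFH, 675 and 670 RU in Treg, and 390 and 387 RU in TFR. Within the network, Mxd3 and Mxd4 (0.959), Mnt and Mlx (0.922) and Myc and Mxd1 (0.9) were most alike. The most opposite pairs were Mxd4 and Mlx (-0.919), Mxd3 and Mlx (-0.896) and Myc and Max (-0.887).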

How the data were processed

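Foxp3-EGFP mice were immunized by the authors, and CD4 T cells sorted from pooled pLN were profiled on 8 one-color Agilent arrays. Spots were extracted by the authors with Agilent Feature Extraction 10.7.3.1 (per the submitters' processing notes), which gives a background-corrected intensity for each of the 4 spots of a probe. They deposited these intensities and a normalized intensity table. The steps given in the methods were rerun here from the spots: exclusion of flagged spots, of spots beyond 1.42 times the interquartile range and of spots with a pixel coefficient of variation above 0.5, geometric mean per probe, quantile normalization, scaling of the 75th percentile to 1500 RU, a floor of 20 RU, and log2. The result correlated with the deposited table with r = 0.9994 on each array. Quantile normalization forces equal distributions, so that a general change of mRNA content cannot be seen, and signals near the floor have compressed differences.

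The brightest probe (mean log2 level) stood for a gene. A probe with more than 50% of its retained spots flagged as well above background counted as such, and genes for which this held on each array of 1 or more cell types were tested. With limma 3.58.1 (R 4.3.3), a linear model of cell type plus day was fitted to 15764 genes and moderated by eBayes (3 residual and 1.89 prior degrees of freedom), and Benjamini-Hochberg adjusted p-values below 0.05 were called. The group test named in the methods was not run, since no cell type has a second array on the same day. The number of arrays limits the precision, and the SD of the spots of a tested network gene was, where well above background, between 0.00609 and 0.244 (log2). The script was tested on simulated data.

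The network genes, the gene lists (from general knowledge of Myc biology and T cell types) and the tests were chosen with earlier results of these data known. Genes named in the text are all network genes, the 3 most similar genes per network gene, and genes from among the up to 4 called genes per list with the largest differences in TFH versus naïve cells and TFR versus Treg. Foxp3, Pdcd1, Pax5, Jchain, Mzb1, Mycl and genes whose TFR and TFH changes differed were named besides these, after their values were seen. Probe positions are those of the files (NCBI37), and promoter sequences are from RefSeq (GRCm38.p6). Alternatives were another scaling, background correction, spot filter, probe filter, floor, probe choice, source table, day or slide term and variance model, and the omission of each array. Cells from PP were not analysed here, and some genes that the naming rule covers are not reported here.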

Additional observations from a re-analysis of the deposited data

Results flagged for a closer look

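The change from Treg to TFR differed from the change from naïve cells to TFH, by limma's test of the difference itself, for 11 of 191 tested genes of the Myc-related lists (5.76%), a share below the 8.49% of all tested genes. Values are log2 differences of the 2 changes. Cdkn1a had -2.76 ± 0.23 (adjusted p = 0.00703), with a larger rise in TFH, but this value rests on levels of naïve cells and Treg that were not well above background. Ndrg1 had 2.83 ± 0.16 (adjusted p = 0.00344), and was 165 RU in TFH at both days, compared with 1205 and 1413 RU in TFR. Among the polyamine genes, Smox, which oxidizes spermine, had -2.40 ± 0.18 (adjusted p = 0.00579), Paox 1.26 ± 0.14 (adjusted p = 0.0133), Sms 0.86 ± 0.14 (adjusted p = 0.0298) and Sat1 0.58 ± 0.11 (adjusted p = 0.0446). Smox was 21122 and 26189 RU in TFH at d12 and d25, and 5427 and 7630 RU in TFR.

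The Max-binding repressor gene Mga had -1.16 ± 0.20 (adjusted p = 0.0337), and the deubiquitinase gene Usp28 had 1.11 ± 0.17 (adjusted p = 0.0286). The glycolytic enzyme gene Pfkp had -1.37 ± 0.19 (adjusted p = 0.0206), the Mlx target gene Arrdc4 -1.37 ± 0.24 (adjusted p = 0.038), and Cdk4 0.59 ± 0.11 (adjusted p = 0.0458). Each of these 11 differences had the same sign at d12 and d25. At d25, the 2 changes were measured on different slides.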

How the results depend on the processing

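In 19 alternatives (17 for the day difference), 42 comparisons of network genes gave 778 values, of which 675 kept direction and call, 85 lost and 5 gained a call, and 13 turned direction, all of the latter without a call. The calls of Myc, Mxd1, Mxd3 and Mxd4 in TFH versus naïve cells and of Mxd1, Mxd3, Mxd4 and Mlx in TFR versus Treg were kept in all alternatives that gave a value (Mxd3 gave none among genes well above background on all arrays). Turned values were, for d25 versus d12, 0.00196 for Mxd1 with the mean of all probes and 0.000654 for Mxd4 with normexp. Where single arrays were left out, the lone array of a cell type is assumed to vary like the others, and the day differences ranged from -0.24 to 0.000104 for Myc, -0.0799 to 0.0484 for Mxd4 and -0.0873 to 0.00315 for Mlx, the difference of changes of Mxd3 from -0.31 to 0.47, and Treg versus naïve cells from -0.0538 to 0.20 for Mnt and -0.18 to 0.0146 for Mlx.

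Without a filter on dim probes, 3870 genes were called in TFR versus Treg (6249 in the main analysis), 1649 in TFR versus TFH (3486), 702 in Treg versus naïve cells (1557) and 418 for the difference of changes (1339), and 2 and 1 network genes in TFR versus TFH and Treg versus naïve cells. Without a day term, 2213, 1000 and 807 genes were called in TFR versus TFH, Treg versus naïve cells and the difference of changes, with 3 network genes in the former. With slide in place of day these were 1349, 523 and 691 genes, with 2 network genes in TFR versus TFH and 0 in Treg versus naïve cells. For the difference of changes, 1 network gene (Myc) was called with 75th percentile scaling alone, with normexp, among genes well above background on all arrays, and with trend and robust eBayes. Between the days, 28 genes were called with 75th percentile scaling alone, 855 with normexp, 6 with all spots kept, 797 among genes well above background on all arrays, 1 without a floor, 0 with the mean of all probes (4331 at an unadjusted p below 0.05) and 1250 with trend and robust eBayes, none of them a network gene.

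Upon omission of single arrays, 4309 to 6478 genes and 4 to 7 network genes were called in TFH versus naïve cells, 2494 to 6731 genes and 4 to 6 network genes in TFR versus Treg, 942 to 2915 and 0 to 5 in TFR versus TFH, 416 to 1865 and 0 to 3 in Treg versus naïve cells, 292 to 1093 and 0 to 1 for the difference of changes, and 0 genes between the days (2683 to 3697 at an unadjusted p below 0.05). The causes were not tested. The arrays were paired by day in the model, and slide in place of day was the other block; the labels carry no replicate numbers. Differences of genes near the floor, such as Mxd3 in naïve cells, are limited by signal over background.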
